A study of Mus musculus with 8 samples.

Results

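ATAC1-only peaks are the regions of open chromatin that were called in the library titled ATAC1 and had no called peak of ATAC2 to ATAC7 within 500 bases. There were 2454 of them among the 24510 peaks of ATAC1 (10.01%, 95% Wilson interval 9.64 to 10.4) and the 164103 peaks of all 7 libraries. They were chosen by where the authors' caller placed peaks, so the number, reads, rank and width of these peaks are given as a description. A peak not called elsewhere may still be open there at a level under the threshold, and the tables give reads of a library only in its own peaks, so reads of ATAC2 to ATAC7 at these positions were not analysed here. "ATAC1-only" below therefore means called only in ATAC1.

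All 8 libraries came from bone marrow stromal cells, taken from C57BL/6J mice of wild-type genotype at post natal 6 weeks. ATAC-seq, in which the Tn5 transposase inserts adapters into accessible DNA, was run on 7 of them, and the Input library was the common control. The study sorted Sca-1 and PDGFR-α positive, CD31, CD45 and Ter119 negative marrow cells by CD24, CD39, CD54, Sca-1 and Ly-6C to compare accessible chromatin between the subpopulations, but the titles are not tied to them by the labels. With 1 library per title there was no replicate, every difference below is between libraries, and intervals cover counting error only.

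Open chromatin outside promoters includes enhancers, which are more particular to a cell type than promoters. Sequence-specific factors bind short motifs there. PU.1 is the ETS family factor of myeloid and B cells, GATA factors act in erythroid, mast and megakaryocytic cells among others, RUNX factors act in blood and bone, and AP-1 is the Fos and Jun dimer that is common at enhancers of fibroblastic cells. Bone marrow stromal cells support blood formation and give rise to bone, fat and cartilage, and the surface proteins CD31, CD45 and Ter119 are used to remove endothelial, leukocyte and erythroid cells from them.

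The sequences of 6 members are shown because the results turn on the motifs and genes found there. They are members among the best-ranked at protein-coding start sites that had a stretch outside annotated exons (near Tyrobp and Cyth4), 3 of the 5 best-ranked members over 10000 bases from any start site (in Rps6ka2, Vav3 and Emilin2), and the member with the highest fold over Input among those with at least 10 Input reads (near Hbb-y). The window of the best-ranked start-site member, near Ppia, lies in annotated exons and is not printed, and those near Cyth4 and Hbb-y were added after their values were seen. Each is the plus strand of mm9, 300 bases around the peak centre, cut to the part upstream of the gene's first exon for Tyrobp (63 bases) and Cyth4 (95 bases). Capitals mark matches, on either strand, to 4 motifs. The letters searched were GAGGAAGT for PU.1 and AGATAA for the GATA factors. For RUNX they were TGTGGT, and for the AP-1 dimer TGANTCA, where N stands for any base.
upstream of Tyrobp, chr7:31198744-31198806: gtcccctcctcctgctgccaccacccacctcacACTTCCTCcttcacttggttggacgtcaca
upstream of Cyth4, chr15:78427382-78427476: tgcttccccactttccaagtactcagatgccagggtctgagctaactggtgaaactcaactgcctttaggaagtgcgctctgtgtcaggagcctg
intron of Rps6ka2, chr17:7410810-7411109: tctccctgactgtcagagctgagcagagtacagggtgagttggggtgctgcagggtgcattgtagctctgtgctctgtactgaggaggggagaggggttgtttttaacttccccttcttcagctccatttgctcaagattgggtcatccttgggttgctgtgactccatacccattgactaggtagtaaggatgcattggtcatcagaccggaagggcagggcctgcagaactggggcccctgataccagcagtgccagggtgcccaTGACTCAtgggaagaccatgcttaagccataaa
intron of Vav3, chr3:109164879-109165178: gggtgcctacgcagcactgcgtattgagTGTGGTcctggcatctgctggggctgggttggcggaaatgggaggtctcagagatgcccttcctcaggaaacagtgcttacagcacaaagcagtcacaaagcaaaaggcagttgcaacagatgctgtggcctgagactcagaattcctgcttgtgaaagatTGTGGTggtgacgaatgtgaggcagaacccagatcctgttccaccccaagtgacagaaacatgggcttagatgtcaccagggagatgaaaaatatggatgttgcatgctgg
intron of Emilin2, chr17:71637509-71637808: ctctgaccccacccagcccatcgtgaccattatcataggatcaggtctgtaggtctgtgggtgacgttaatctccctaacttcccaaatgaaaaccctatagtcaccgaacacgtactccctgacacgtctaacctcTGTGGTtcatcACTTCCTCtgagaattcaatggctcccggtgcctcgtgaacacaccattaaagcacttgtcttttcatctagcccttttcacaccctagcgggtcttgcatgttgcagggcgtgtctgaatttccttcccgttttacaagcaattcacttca
upstream of Hbb-y, chr7:111007633-111007932: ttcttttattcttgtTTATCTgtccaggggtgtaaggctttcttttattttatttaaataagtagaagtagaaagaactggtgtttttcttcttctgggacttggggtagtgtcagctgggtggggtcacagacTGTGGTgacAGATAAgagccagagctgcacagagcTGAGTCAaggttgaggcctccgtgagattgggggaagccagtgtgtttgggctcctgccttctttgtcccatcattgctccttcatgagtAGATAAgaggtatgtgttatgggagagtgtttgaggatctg
The Hbb-y sequence held 3 GATA matches with 1 RUNX and 1 AP-1 match, and the locus control region of the beta-globin genes is known to lie upstream of Hbb-y, the embryonic beta-like globin gene. The Tyrobp and Emilin2 sequences each held 1 PU.1 match. That of Rps6ka2 held 1 AP-1 match, that of Emilin2 also 1 RUNX match, and that of Vav3 2 RUNX matches. The printed Cyth4 stretch held none of the 4 motifs, although the full window at Cyth4, which continues into its first exon, held a PU.1 match.

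The members were among the weaker peaks of ATAC1. Their ranks in the list, by the authors' statistic, ran from 8108 to 24507 with a median of 20540. When the list was split into 4 bands of equal size by rank, the best band held 0 members, the second 75, the third 663 and the last 1716 (28.0% of its peaks, 26.9 to 29.1). A member had a median of 62 ATAC1 reads in its outer region (quartiles 51 and 78, range 27 to 206). The other 22056 ATAC1 peaks had a median of 159 reads (quartiles 93 and 357, range 24 to 3955). The members held 164500 (2.41%) of the 6814592 reads in ATAC1 peaks.

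Input reads were lower at the members in like proportion. Their median was 10 (quartiles 6 and 15), against 30 (15 and 55) at the other ATAC1 peaks, and per 1000 bases of outer region it was 35.5 against 64.7. The authors' fold over Input, a scaled ratio of the 2 counts, had a median of 7.89 in both sets, and of 6.60 in the other ATAC1 peaks within the members' range of ranks. It was at least 5 in 2004 members (81.7%, 80.1 to 83.1), against 79.9% of the other ATAC1 peaks and 70.6% of those within the range of ranks. In 26 members the Input count was 0, and their fold carries no information because it is set by a small offset. Members were also narrower, with a median width of 131 bases against 175.

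**Figure D1:**
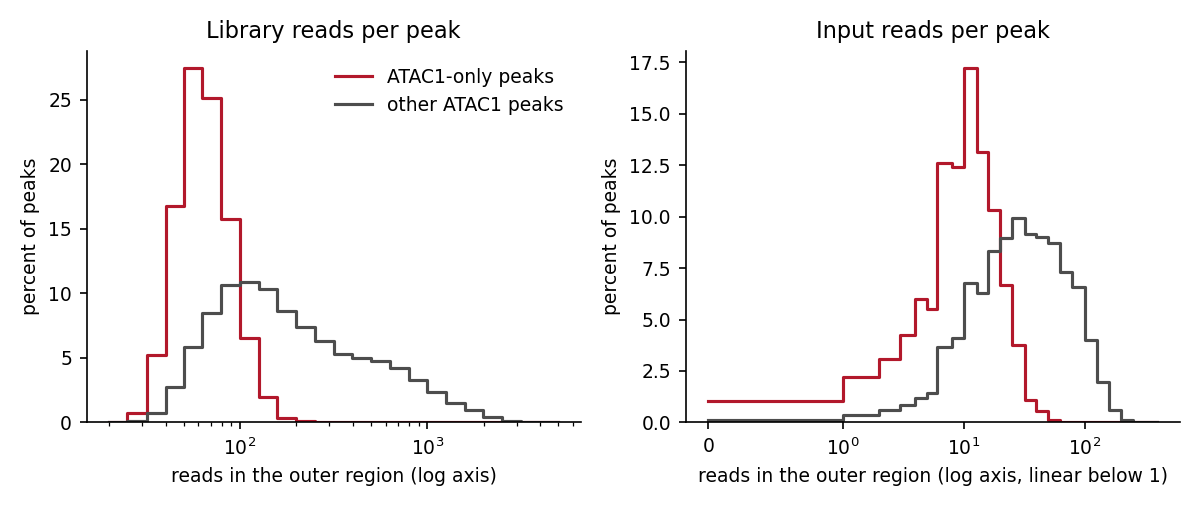
Distribution of ATAC1 reads (left, log axis) and Input reads (right, log axis, linear below 1) per peak, in percent of 2454 ATAC1-only peaks (red) and of 22056 other ATAC1 peaks (grey). The red distributions lie lower in both panels, with medians of 62 and 10 reads against 159 and 30.

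Reads rose with the number of other libraries that had a peak nearby. The median was 77 reads in the 2045 ATAC1 peaks with 1 other library within 500 bases and 332 in the 10842 peaks with all 6. At the limit itself, the members just outside had their nearest neighbour 501 bases away (near Ppia, 142 reads) and 504 bases away (129 and 112 reads, near Gpatch2 and Fasl). The ATAC1 peaks just inside had theirs 500 bases away (near Syngr1, 104 reads), 499 bases away (near Tmem120b, 114 reads) and 498 bases away (in Mef2c, 57 reads). The gap to the nearest peak of another library had a median of 6490 bases over the members and exceeded 1000 bases in 2201 (89.7%) and 50000 bases in 192 (7.82%). The nearest neighbour was most often a peak of ATAC5 (621 members) or ATAC2 (583), the longest lists, and least often one of ATAC7 (143), the shortest.

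Members lay away from promoters. The centre of 323 members was at most 1000 bases from an annotated start of transcription (13.2%, 11.9 to 14.6), against 63.8% (63.2 to 64.4) of the other ATAC1 peaks and 49.1% (48.2 to 49.9) of those within the members' range of ranks. The share of ATAC1-only peaks at promoters was 26.96% when only overlapping peaks counted as shared, and 23.6% when every library was reduced to the same number of peaks. The centre was over 10000 bases away in 1177 members (47.96%, 45.99 to 49.9), against 18.7% (18.1 to 19.2). The difference was seen in each rank band that held members, with 15 of 75 (12.5 to 30.4%), 14.8% (12.3 to 17.7) and 12.2% (10.8 to 13.9) at promoters from the second to the last band, against 67.4%, 48.9% and 36.7% of the other peaks. The promoter share rose stepwise from 21.4% with 1 other library to 85.9% with 6, so the members stood at the low end of a gradient and not apart from it. The same rule gave low promoter shares in other libraries, 8.63% (7.86 to 9.47) for ATAC2-only, 16.8% (15.7 to 18.03) for ATAC5-only and 15.7% (14.2 to 17.4) for ATAC6-only peaks. By annotation, 1246 members (50.8%) had their centre in an intron, 1009 (41.1%) between genes, 93 (3.79%) in an untranslated region, 61 (2.49%) in a coding exon and 45 (1.83%) in a non-coding exon.

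Base composition followed the same gradient. The 300 bases around the centre had a median of 48.7% G and C (quartiles 45.0 and 52.7) in the members, against 59.0% (51.3 and 67.7) in the other ATAC1 peaks. Outside promoters the medians were closer, 48.3% and 51.7%. The median number of CpG dinucleotides in the window was 4 against 16.

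**Figure D2:**
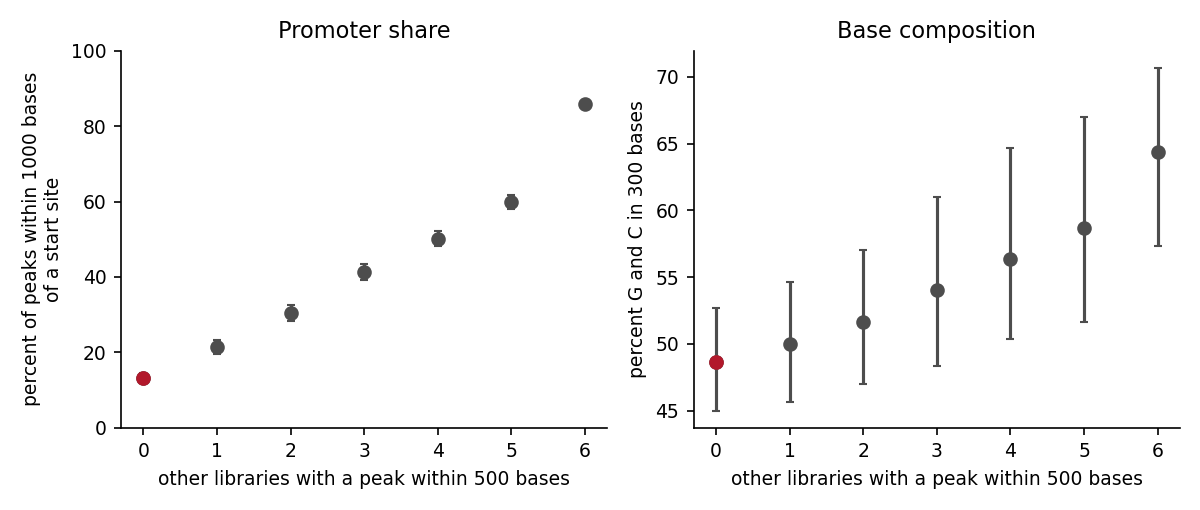
ATAC1 peaks by the number of other libraries with a peak within 500 bases (x axis), with the ATAC1-only peaks (0 others) in red. Left, percent of peaks within 1000 bases of a start site with 95% Wilson intervals, rising from 13.2% to 85.9%; right, median percent of G and C in 300 bases with quartiles, rising from 48.7% to 64.3%.

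Another member was within 10000 bases of 492 members (20.05%, 18.5 to 21.7), and a shared ATAC1 peak was within 10000 bases of 1144 (46.6%, 44.7 to 48.6).

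Matches to the PU.1 motif were more frequent at the members than in the other ATAC1 peaks and than in the peaks called only in ATAC2, ATAC5 or ATAC6. To keep promoters out, motifs were counted in the 2131 members and the 7982 other ATAC1 peaks away from start sites. PU.1 letters were found in 229 members (10.7%, 9.50 to 12.1), against 2.37% (1.95 to 2.87) of windows of the same length placed 2000 bases to either side. The level depends on the letters and window: it was 7.04% in the peak as called (4.37% of the other ATAC1 peaks), 43.6% (35.3%) with shorter letters and 2.63% (1.58%) with longer ones. The share was 6.41% (5.90 to 6.97) in the other ATAC1 peaks, 2.48% (2.06 to 2.996) in ATAC2-only, 3.10% (2.55 to 3.76) in ATAC5-only and 1.96% (1.39 to 2.75) in ATAC6-only peaks. The small set of 123 ATAC3-only peaks had 13.01% (8.17 to 20.1), an interval that covers the share of the members. From the second to the last rank band the members had 16.7% (9.31 to 28.0), 10.1% (7.87 to 12.8) and 10.8% (9.29 to 12.4), and the other ATAC1 peaks 8.07%, 7.10% and 4.76%. Among ATAC1 peaks with 1 to 6 other libraries the share ran from 4.98% (6 others) to 8.04% (2 others). Over windows of all ATAC1 peaks, promoters included, 4.62% held a PU.1 match. The letters of the related ETS motif CCGGAAGT end alike but cannot match the same bases, and they were found in 14 members (0.657%).

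GATA matches were found in 437 members outside promoters (20.5%, 18.8 to 22.3), against 15.2% (14.1 to 16.3) of windows 2000 bases away and 12.9% (12.2 to 13.7) of the other ATAC1 peaks. In the peak as called the share was 12.3%, and with letters longer by 1 base 7.84% (8.34% and 5.01% of the other ATAC1 peaks). ATAC2-only peaks had 6.33% (5.64 to 7.10), ATAC5-only peaks 10.6% (9.60 to 11.7) and ATAC6-only peaks 16.4% (14.6 to 18.2). This was not particular to the members, since ATAC1 peaks with 1 or 2 other libraries had 22.8% (20.8 to 24.9) and 21.7% (19.5 to 24.0), those with all 6 had 6.36% (5.24 to 7.70), and the 92 ATAC4-only peaks had 39.1% (29.8 to 49.3). PU.1 and GATA matches lay mostly in different members: 35 held both, which is 15.3% of those with PU.1 and 8.01% of those with GATA. Over all ATAC1 peaks 9.10% held a GATA match.

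Outside promoters, AP-1 matches were fewer at the members than in the other ATAC1 peaks and in the ATAC2-only, ATAC5-only and ATAC6-only peaks. They were found in 319 members (15.0%, 13.5 to 16.5), above the 8.12% (7.34 to 8.98) of windows 2000 bases away and below the 23.6% (22.7 to 24.5) of the other ATAC1 peaks. ATAC2-only peaks had 37.5% (36.1 to 39.0), ATAC5-only 31.6% (30.02 to 33.2) and ATAC6-only 23.3% (21.4 to 25.5). RUNX matches were found in 666 members (31.3%, 29.3 to 33.3), against 26.6% (25.7 to 27.6) of the other ATAC1 peaks and 37.5% (36.0 to 38.9) of ATAC2-only peaks. Matches to TTGCNNAA, the CEBP letters, were found in 382 members (17.9%, 16.4 to 19.6), against 15.0% (14.2 to 15.8) of the other ATAC1 peaks and 17.0% (15.7 to 18.4) of ATAC5-only peaks. Matches to the CTCF letters AGNNGGCNC were found in 345 members (16.2%, 14.7 to 17.8), against 24.4% (23.5 to 25.4). TEAD letters (GGAATG) were found in 12.2% of the members, below the 15.3% of windows 2000 bases away. Of all ATAC1 peaks, 18.1% held a RUNX, 12.1% an AP-1 and 10.8% a CEBP match.

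**Figure D3:**
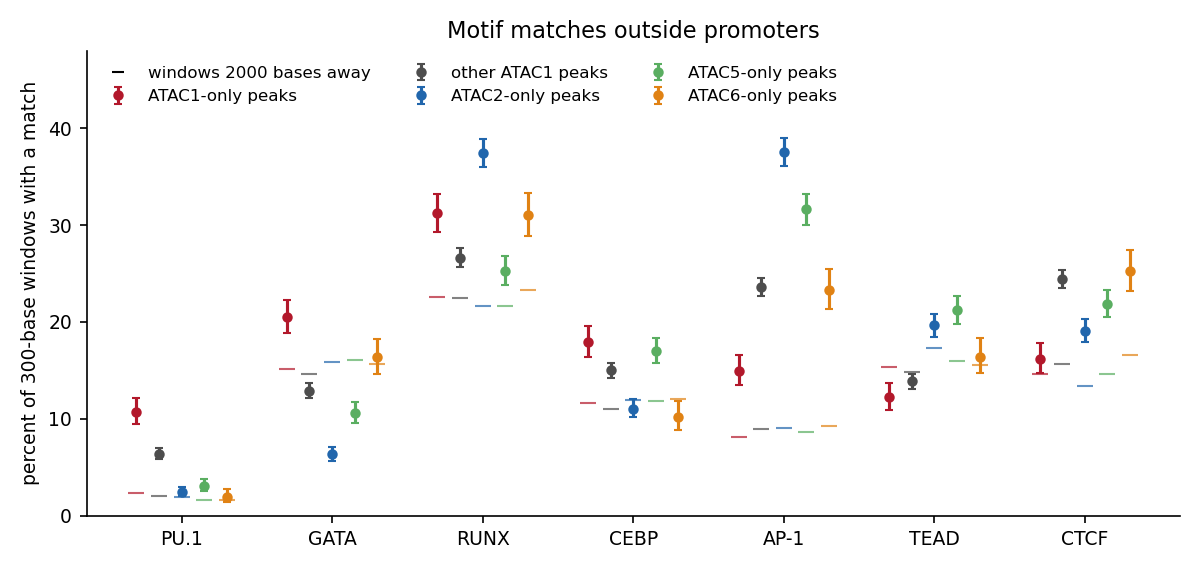
Percent of 300-base windows outside promoters with a match to each of 7 motifs, for ATAC1-only peaks (red), other ATAC1 peaks (grey) and the peaks found by the same rule for ATAC2, ATAC5 and ATAC6; bars are 95% Wilson intervals and dashes the windows 2000 bases away. ATAC1-only peaks have the highest PU.1 and GATA shares (10.7% and 20.5%) and the lowest AP-1 share (15.0%) of these sets.

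The matches were centred on the members. In the middle 100 bases the PU.1 letters occurred 28.2 times per 1000 members in 50 bases, against 3.50 between 500 and 1000 bases from the centre, a ratio of 8.05. In the other ATAC1 peaks the ratio was 3.66. The ratio for GATA was 1.60 in the members and 1.11 in the other peaks, for RUNX 1.68 and 1.32, and for AP-1 2.30 and 3.93. These ratios rest on 120 central PU.1, 214 GATA, 318 RUNX and 164 AP-1 matches in the members.

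**Figure D4:**
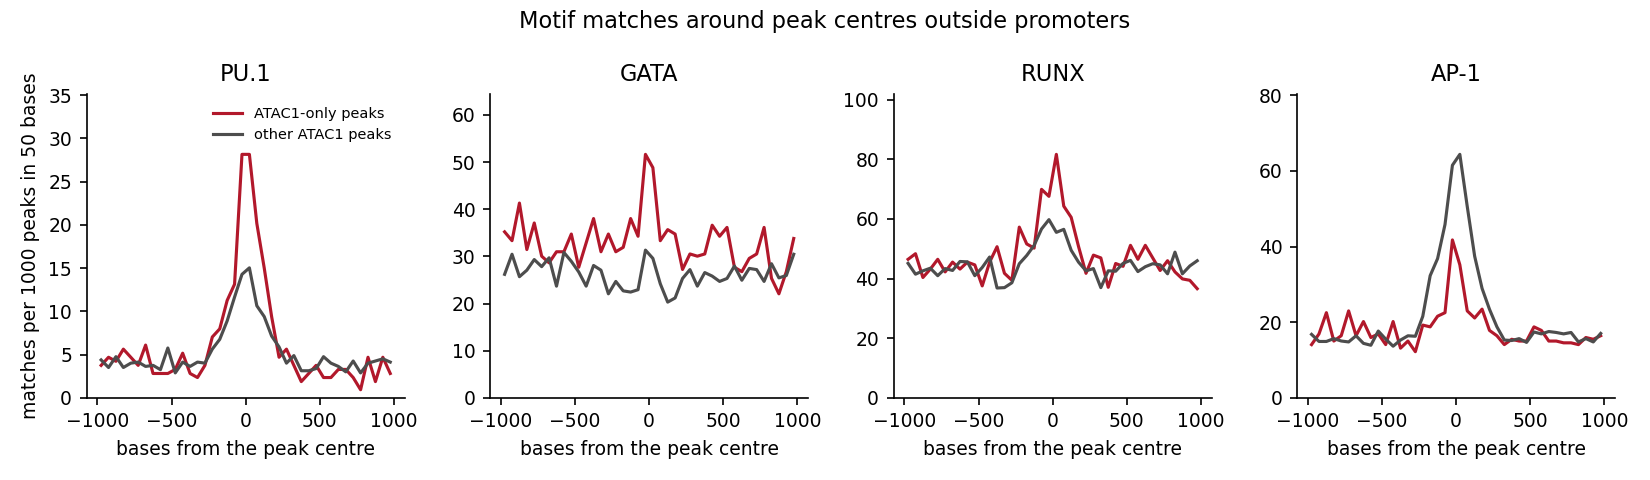
Matches per 1000 peaks in bins of 50 bases (y axis) by distance from the peak centre in bases (x axis) for ATAC1-only peaks (red, n = 2131) and other ATAC1 peaks (grey, n = 7982) outside promoters. The central rise is higher in red for PU.1 (28.2 against 14.7), GATA and RUNX, and higher in grey for AP-1 (63.0 against 38.5).

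The nearest protein-coding gene by start site was taken as the neighbour of a member, which names a neighbour and not a target. In all, 1851 genes were nearest to at least 1 member, which is 8.33% of the 22225 protein-coding genes tested. Of these, 1434 had 1 member, 294 had 2 and 1 had 8. The gene with 8 was *Ets1*, a transcription factor of the ETS family, whose members had 52 to 99 reads against 4 to 14 Input reads and lay 10923 to 787495 bases from its start site. *Thbs1* (thrombospondin 1), *Cdh26* (a cadherin), *Ptger4* (a prostaglandin E2 receptor) and *Lmo4* (a LIM-only transcriptional regulator) had 6 each. The 6 at *Thbs1* lay upstream, 99481 to 186213 bases away, with 48 to 80 reads against 3 to 17. *Rin3*, *Cd47*, *Tbc1d2b*, *Dennd4a* and *Cxcr4* had 5 each. *Cxcr4*, the receptor of the chemokine Cxcl12 that keeps blood cells in the marrow, had members with 52 to 87 reads against 2 to 25. No peak found by the same rule in any other library lay nearest to it or to *Dennd4a*. Every other gene named in this paragraph had such peaks. *Rin3* had 5 ATAC2-only peaks, *Lmo4* 4 ATAC2-only and 4 ATAC5-only, and *Ets1* 3 ATAC2-only, 2 ATAC5-only and 4 ATAC6-only. Counting all peaks, *Cxcr4* was nearest to 17 of ATAC1 and to 5 to 10 of each other library.

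The best-ranked member of all lay on chromosome 2, 18926583 to 18926700, between genes and 6671 bases from the start of *4930426L09Rik*, with 129 reads against 21 and a PU.1 match. Among the best-ranked at protein-coding start sites were those at *Ppia* (cyclophilin A, 142 reads against 27), *Tyrobp* (150 against 18), *Cyth4* (a cytohesin, 116 against 31) and *Bank1* (a B cell scaffold protein, 115 against 24). *Tyrobp* encodes DAP12, the signalling adaptor of myeloid and natural killer cells, and the nearest peak of another library was 709 bases away in ATAC5. The *Ppia* member lay 501 bases from such a peak, close to the limit. The Hbb-y member, on chromosome 7, 111007693 to 111007871, had rank 8772 with 191 reads against 12, a fold of 19.5, and an ATAC6 peak 1302 bases away. Among distal members, that in an intron of *Emilin2* had 101 reads against 6 and that in an intron of *Vav3*, a guanine nucleotide exchange factor, had 114 against 16.

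Markers of the labelled cell type and of cells removed in the sort were looked up at start sites. Of 20 stromal markers, 8 had an ATAC1 peak there, against 3 of 19 haematopoietic and 2 of 20 endothelial markers and 49.1% of all protein-coding genes. *Pdgfra*, *Lepr*, *Cxcl12* and *Prrx1* were among the 12 stromal markers without such a peak. The haematopoietic genes with a start-site peak were *Ptprc* (84 reads against 2 in Input), *S100a8* (313 against 20) and *S100a9* (235 against 21), and no such peak was called at *Cd34*, *Kit*, *Cd3e*, *Ly6g*, *Mpo*, *Elane*, *Lyz2*, *Hba-a1* or *Gata1*. Summed over the haematopoietic list, reads in start-site peaks came to 632 for ATAC1, 0 for ATAC2, 472 for ATAC3, 319 for ATAC4, 788 for ATAC5, 373 for ATAC6 and 296 for ATAC7. The libraries differ in depth, and per 1000000 reads in peaks the sums were 92.7 for ATAC1, 0 for ATAC2, 115.95 for ATAC3, 84.6 for ATAC4, 89.9 for ATAC5, 43.5 for ATAC6 and 86.1 for ATAC7. On the same scale the stromal list ran from 334 (ATAC4) to 662 (ATAC5), with 375 in ATAC1. Whether blood cells contributed to the ATAC1-only peaks described next was not tested, and fewer cells of a type and weaker opening in each cell cannot be told apart in a bulk library.

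Of 18 annotated genes on the list of myeloid regulators, 10 (55.6%) were nearest to a member. The background was the 8.33% of all genes given above. ATAC2-only peaks were nearest to 6 of these genes, ATAC5-only peaks to 6 and ATAC6-only peaks to 1, where the shares of all genes were 13.9%, 12.7% and 7.51%. The members lay at *Tyrobp*, at *Maf* (3 members, 48 to 109 reads against 11 to 27), at *Fcgr3*, an Fc receptor (70 against 14, 4 bases from its start site and 14315 bases from a peak of another library), and at *Cd14*, the lipopolysaccharide co-receptor (84 against 2). Others were at *Itgam*, the integrin CD11b (76 against 20), *Klf4* (56 against 5) and *Itgb2*, the integrin CD18 (51 against 15, with a PU.1 match). That at *Csf1r*, the M-CSF receptor (71 against 4), lay 13573 bases upstream and 702 bases from an ATAC2 peak. The other 2 genes had 1 member each, ranked below these. PU.1 letters were in the members at *Tyrobp* and *Itgb2* and in 1 of those at *Maf*, and in no other member of this list. Those of *Maf* and *Klf4* were over 50000 bases away, and within that distance 8 genes of the list had a member, where the share of all genes was 7.15%. Of the 49 ATAC1 peaks nearest to the listed genes, 12 (24.5%, 14.6 to 38.1) were members, against 10.01% of all ATAC1 peaks. Outside promoters 10 of 31 (32.3%, 18.6 to 49.9) were members, against 21.1% (20.3 to 21.9) of all ATAC1 peaks there, a share within that interval. When every library was reduced to the 15188 best-ranked peaks of the shortest list, 660 peaks were ATAC1-only, 265 of them members here, and 2 of the 18 myeloid genes (11.1%) were nearest to them, against 2.74% of all genes at this setting.

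The list of haematopoietic cell markers gave 5 of 19 genes, *Ptprc*, *Itgam*, *Csf1r*, *S100a8* and *S100a9*, against 1 for ATAC2-only, 3 for ATAC5-only and 0 for ATAC6-only peaks. The shares of all genes for these sets were 8.33%, 13.9%, 12.7% and 7.51%, as for the myeloid list. *Itgam* and *Csf1r* are on the myeloid list too, and *Ptprc* is also among the surface markers below, so these lists are not separate results. *S100a8* and *S100a9*, which encode calprotectin of neutrophils and monocytes, lie side by side on chromosome 3 and had 4 members each. Those at *S100a8* had 57 to 66 reads against 1 to 8, and those at *S100a9* had 78 to 150 against 10 to 19. The *Ptprc* member, in an intron of the gene for CD45, had 72 reads against 0. Of 28 ATAC1 peaks at genes of this list, 11 (39.3%, 23.6 to 57.6) were members, against 10.01% of all ATAC1 peaks, and outside promoters 11 of 24 (45.8%, 27.9 to 64.9) against 21.1%. At *S100a8* 4 of 5 ATAC1 peaks were members and at *S100a9* 4 of 7, so most members of this list lay at a single locus. The intervals count these neighbouring peaks as independent. No member was nearest to *Cd79a*, *Cd3e*, *Mpo*, *Elane*, *Lyz2*, *Hba-a1* or *Gata1*. 

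Surface markers that the study examined for its sort were looked at in the same way. Members were nearest to 3 of 9 (33.3%, against 8.33% of all genes), *Entpd1* (5 members), *Il1r2* (1) and *Ptprc*. *Entpd1* encodes CD39, used for sorting, and its members had 48 to 92 reads against 11 to 18 and lay 119 to 5477 bases from annotated start sites. They made up 5 of the 10 ATAC1 peaks of *Entpd1*, where 10.01% of all ATAC1 peaks, and 21.1% of those outside promoters, were members. For the whole list 6 of 15 peaks outside promoters (40%, 19.8 to 64.3) were members, an interval that covers the 21.1%. *Il1r2* encodes CD121b, which is not among the sorting markers named above. Without it the count was 2 of 8, as for ATAC5-only peaks. *Il1r2* had 1 member with 51 reads against 6, 38131 bases upstream. *Ly6a*, *Ly6c1*, *Cd24a*, *Icam1*, *Pdgfra* and *Pecam1* had none.

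Lists of the mesenchymal lineages lay from 5.26% (adipocyte) to 15% (stromal markers) for the members, around the 8.33% of all genes. The counts for ATAC2-only, ATAC5-only and ATAC6-only peaks that follow are to be read against 13.9%, 12.7% and 7.51% of all genes. Members were nearest to 2 of 19 chondrocyte genes (*Sox5* and *Sox6*), where ATAC2-only peaks were nearest to 15 and ATAC5-only and ATAC6-only peaks to 7 each. They were nearest to 2 of 20 osteoblast genes (1 within 50000 bases, *Atf4*) against 7, 8 and 3, to 1 of 19 adipocyte genes (*Cd36*) against 5, 8 and 2, and to 2 of 20 fibroblast and tendon genes (*Fbln2* and *Thbs4*) against 8, 11 and 3. Of 20 stromal markers, *Cd44*, *Nt5e* and *Itgav* were nearest to members (3, against 7, 10 and 2). In smooth muscle the count was 2 (*Acta2* and *Mef2c*) against 3, 6 and 1. In skeletal muscle it was 0, against 0 for ATAC2-only, 2 for ATAC5-only and 3 for ATAC6-only peaks. Endothelial markers gave 4 of 20 (*Fli1*, *Erg*, *Emcn* and *Kdr*) against 3, 10 and 2, within 50000 bases only *Fli1* and *Erg* remained for the members, and *Fli1*, the ETS factor next to *Ets1*, is also expressed in blood cells. Lymphoid regulators gave 3 of 20 (*Tcf3*, *Zap70* and *Ikzf1*) against 4, 6 and 4.

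For the signalling lists the shares of all genes were again 8.33% for ATAC1-only, 13.9% for ATAC2-only, 12.7% for ATAC5-only and 7.51% for ATAC6-only peaks. The lists gave 7 of 20 genes of the TGF-β and BMP pathway against 11, 12 and 5, among them the ligands *Bmp2* and *Tgfb3*, the receptor *Tgfbr2* and the mediators *Smad3* and *Smad7*, but within 50000 bases of the start site the count was 1 (*Smad3*). They gave 5 of 20 AP-1 and immediate early genes (2 within 50000 bases) against 7, 6 and 5, 4 of 20 NF-κB and inflammatory genes against 5, 7 and 1, 3 of 20 cytoskeleton and adhesion genes against 11, 6 and 6, and 1 of 20 Wnt genes (*Tcf7l2*, with 5 members) against 7, 10 and 2. The share for ATAC1-only peaks was 15% for the cytoskeleton list and 5% for the Wnt list.

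**Figure D5:**
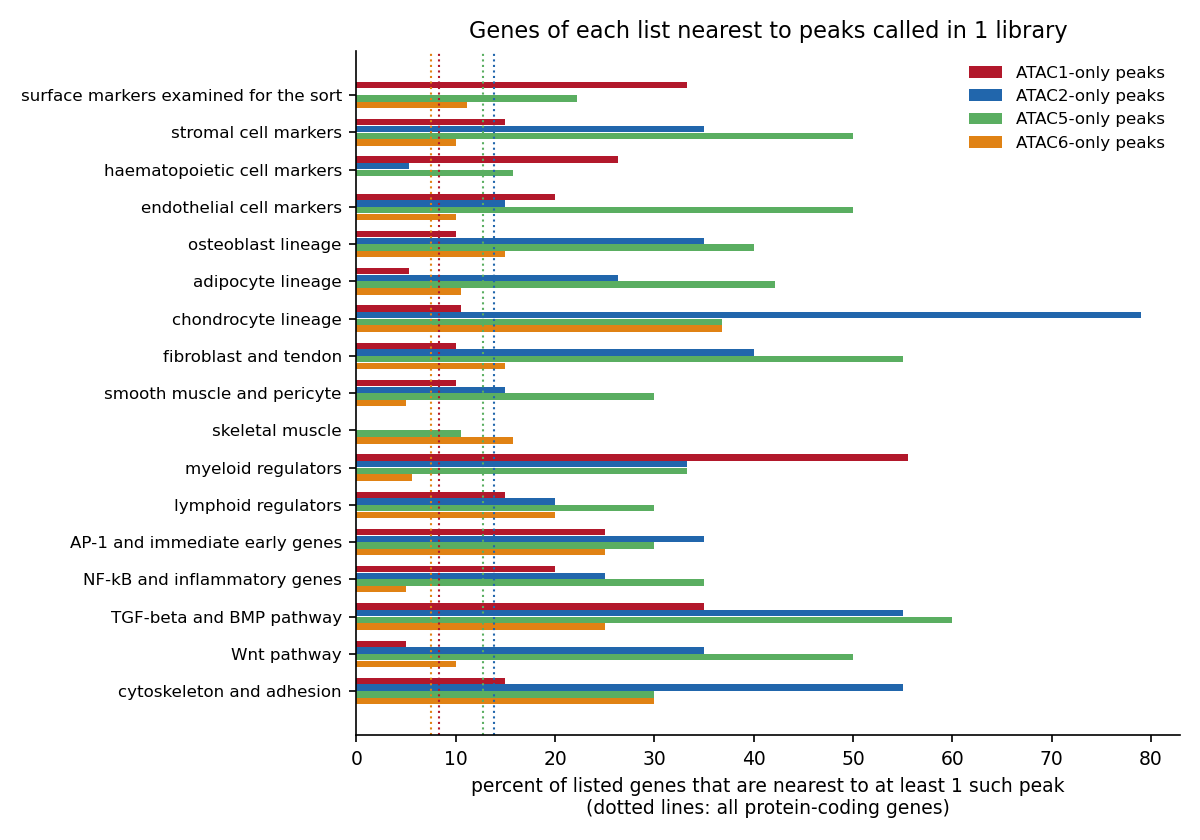
Percent of the annotated genes of each list (bars from 0) that were nearest by start site to at least 1 ATAC1-only, ATAC2-only, ATAC5-only or ATAC6-only peak, with the percent of all protein-coding genes as dotted lines. ATAC1-only peaks have the longest bar in the myeloid (55.6%), haematopoietic (26.3%) and examined surface marker (33.3%) lists, and a shorter bar than ATAC2-only and ATAC5-only peaks in the osteoblast, adipocyte, chondrocyte and fibroblast lists. Lists overlap, with *Itgam* and *Csf1r* on the myeloid and haematopoietic lists and *Ptprc* on the haematopoietic and surface marker lists.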

How the data were processed

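Members, gene lists and motifs were chosen with earlier results of these data known. The authors aligned ATAC-seq reads to mm9 with Bowtie and called peaks of each library against Input with the two-sample mode of CisGenome (p-value limit 1e-05, FDR under 0.01). A Tn5 shift and duplicate removal are not given in the sources used here. Each deposited table holds, per outer region, a whole-number count of library reads with that of Input reads, a ranking statistic and window value that are signal columns of the authors' caller, and the authors' fold, a scaled ratio of the 2 counts with 0.01 added to Input. Columns were identified from the values. Raw library depth is not known. Reads in peaks ranged from 3437628 in ATAC7 to 8766021 in ATAC5.

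Peaks were shared when facing edges were at most 500 bases apart, with inclusive coordinates. Peak centres were annotated with GENCODE vM1 on NCBIM37, which is mm9. A promoter was within 1000 bases of a start site. Motifs (22 searched, both strands) were counted in 300 bases around the centre and in windows 2000 bases to either side. Shares have 95% Wilson intervals and medians order-statistic intervals, and no test was made because members were chosen from these peaks and each title has 1 library. Named regions are the best-ranked members in all, at start sites and over 10000 bases away, those of highest fold with 10 Input reads, and those at the limit. Named genes are the 10 nearest to the most members, the surface markers examined for the sort, and list genes nearest to a member, up to 8 per list. Ties for the 10 were cut by best rank, and 8 genes in all had 5 members. The script that finds gaps, start sites and motifs was tested on simulated data. Python 3.11.15, numpy 2.4.6, pandas 2.3.3, scipy 1.17.1, matplotlib 3.10.9, pysam 0.24.0 and samtools 1.23.1 were used. Some genes, regions and sequences chosen by these rules are not reported here. The lists of coordinates equal the tables and were not used.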

Additional observations from a re-analysis of the deposited data

How the results depend on the processing

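No paired analysis was possible because every title stands for a single library. Counts were taken as changed beyond 1.5 times, shares and medians beyond their 95% intervals, which are narrow. Alternatives for motifs, neighbouring genes and the list of surface markers were chosen after seeing the data. Under alternatives 39 values stayed within these limits and 28 did not, and leaving out each of ATAC2 to ATAC7 gave 2478 to 3323 peaks. The cause of the changes was not tested, except that fewer peaks enter by construction at equal peak number and at a fold of at least 5.

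With equal peak numbers there were 660 ATAC1-only peaks, 23.6% at promoters, with medians of 98 library reads, 14.5 Input reads, a fold of 8.59 and 50.7% G and C. GATA matches were in 17.1%, and 609 genes (2.74% of all), 2 of the 18 myeloid genes (11.1%) among them, were nearest. With a gap of 0 bases, 26.96% were at promoters, and the medians were 69 reads, 12 Input reads, a fold of 7.44 and 49.7% G and C. With a gap of 1000 bases, 10.6% were at promoters. With a fold of at least 5, 11.03% were at promoters, with medians of 8 Input reads, a fold of 8.97 and 47.7% G and C. The promoter share was 8.52% with a window of 500 bases, 36.9% with 5000 and 11.2% with protein-coding start sites alone. In the peak as called, G and C had a median of 49.7%, PU.1 matches were in 7.04% (4.37% of the other ATAC1 peaks) and GATA matches in 12.3% (8.34%). PU.1 with 2 letters fewer was in 43.6% (35.3%), with 1 more at each end in 2.63% (1.58%), and GATA with 1 letter more in 7.84% (5.01%). The members had the higher share in each of these.

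A median of 62 reads leaves the presence of the same region in a library of lower depth undecided, and reads of other libraries at these positions were not analysed here.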

Other observations

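Members were unevenly spread over the chromosomes. On the X chromosome 29 of 578 ATAC1 peaks (5.02%, 3.52 to 7.11) were ATAC1-only, against 10.1% (9.77 to 10.5) of ATAC1 peaks outside the sex chromosomes, where the share ran from 7.42% on chromosome 17 to 12.4% on chromosome 16.

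At promoters, GATA letters were in 63 of the 323 members (19.5%) and PU.1 letters in 27 (8.36%), against 4.97% and 2.59% of the other 14074 promoter peaks of ATAC1. This was not particular to GATA and PU.1. RUNX (27.9% against 11.1%), CEBP (16.4% against 7.25%) and AP-1 letters (12.1% against 5.22%) were also more frequent there, while others, such as CTCF (22.6% against 30.7%), were less frequent. The members at promoters had a median of 52.3% G and C against 64.3% in the other promoter peaks.

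Matches to CAGCTG, an E-box, were in 577 members outside promoters (27.1%, 25.2 to 29.0), against 14.4% (13.3 to 15.4) of windows 2000 bases away and 24.7% (23.8 to 25.7) of the other ATAC1 peaks. Homeobox letters (TAATTA) were less frequent at the members (4.27%, 3.49 to 5.21) than 2000 bases away (8.12%, 7.34 to 8.98), as they were in the other ATAC1 peaks (3.95% against 7.204%). Members with a PU.1 match had a median of 61 reads and those without 62.

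Among the genes nearest to members with a PU.1 match, *Ltb4r1*, *Pip4k2a*, *Frrs1* and *Cblb* had 2 such members each. *Ipo11*, *Klf3* and *Tcf7l2* had 3 members with a GATA match each. These genes were chosen after their values were seen. *Ltb4r1* encodes a leukotriene B4 receptor and *Klf3* a Krüppel-like factor.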
